A study of Mus musculus with 26 samples.

Results

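The comparison set TCRTg101 CD8+ T cells taken from the liver 7 days into the leukemia experiment (early) against TCRTg101 from the spleen of leukemia-free mice (control). The samples were chosen by tissue, treatment and day in their labels, which gave 2 early and 3 control libraries, 5 of the 15 libraries of the series and 9 of its 26 sequencing runs. Repeat runs of a library were summed. TCRTg101 carry 1 transgenic T cell receptor (TCR), built from TRAV13 and TRBV5 chains of a clone that recognizes C1498, an acute myeloid leukemia cell line of the C57BL/6 strain. The study followed these cells over the course of leukemia by RNA sequencing of sorted cells. All 5 libraries were labelled as strain C57BL/6, age 6 weeks and genotype wild type, and the transgenic mice were bred on a Rag2-/- background, which blocks rearrangement of other receptors. Early replicates 1 and 2 were TCRTg101 from the liver of mice with leukemia (day 7), and in the study's transfer protocol naive cells were infused a day before C1498 cells were given intravenously. Control replicates 1 and 2 were naive TCRTg101 at day 0, and control replicate 3 was TCRTg101 from untreated mice at day 18. Every early library came from liver with leukemia and every control from spleen without it, so tissue, leukemia and time since transfer cannot be told apart in this comparison. The number of mice behind a library was not given in the sources used here.

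A naive CD8+ T cell is a small, resting cell kept in circulation through lymphoid organs by a set of transcription factors and homing receptors, among them TCF1, LEF1, KLF2, CCR7 and S1PR1. Recognition of peptide on MHC class I sets off calcium and kinase signals that induce the NR4A and EGR transcription factors, IRF4 and MYC, followed by growth, division, and the release of cytokines, chemokines and granzymes. When antigen persists, as in cancer, activated cells hold co-inhibitory receptors such as PD-1 and LAG-3 and the factor TOX, a state called exhaustion or dysfunction.

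The 3 control libraries held 65615912, 49965571 and 28320039 estimated counts, and the early libraries held 38324722 and 30276723. Levels below are CPM (counts relative to the library total) scaled by TMM, a correction for library composition, and values in a series are given in the order control 1, 2 and 3, then early 1 and 2. T cell identity genes were high in all 5 libraries. Cd3e was at 803, 900 and 908 CPM in the controls and at 699 and 864 CPM in the early libraries, and Trbv5 made up 99.75% to 99.89% of TRBV counts in the controls, 99.08% in early 1 and 99.89% in early 2. Cd8b1, the beta chain of the CD8 coreceptor, was at 1996, 1793 and 1661 CPM in the controls and at 704 and 1567 CPM in the early libraries. Its log2 fold change was -1.24 in early 1 and -0.09 in early 2. Of 12 CD8 T cell identity genes, 10 lay under every control in early 1 and 7 in early 2. Of all 14616 tested genes, 4771 and 3850 did so. Both early libraries lay under all controls for 6 of the 12, against 10.8% of all tested genes, with no test attached. On the deposited TPM, which carry no correction for composition, this held for 2 of the 12, against 3.44% of all genes.

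Control 1 and control 2 carried macrophage, MHC class II and erythroid transcripts that control 3 and both early libraries held at a much lower level. Other lists did not follow. The summed CPM was 706, 590, 563, 363 and 649 for 10 B cell markers and 129, 173, 163, 101 and 185 for 8 endothelial and platelet markers. The summed CPM of 11 macrophage and Kupffer cell markers was 1247 and 160 in the day 0 controls, 9.85 in the day 18 control, and 2.08 and 3.03 in the early libraries. For 10 dendritic cell and MHC class II markers the sums were 1999, 1832, 42.1, 46.3 and 14, and for 6 erythroid markers they were 5139, 19779, 134, 3.22 and 104. For 12 hepatocyte markers the sums were 319, 22, 1.24, 12.7 and 3.64, so control 1 was the highest. Those other than Trf and Apoc1 were nearly absent from the controls. Albumin (Alb) was at 0.0147, 0 and 0.0319 CPM there against 3.07 and 0.886 CPM in the early libraries. Early 1 had the highest sum of the 6 NK cell markers, 26 CPM against 1.28 to 8.41 CPM in the other 4 libraries, led by Klre1 (13.9 CPM) and Klrb1c (8.73 CPM), whereas the defining NK cell gene Ncr1 was at 0. Early 1 also had the largest share of TRBV counts outside Trbv5, at 0.92% against 0.11% to 0.25% in the other 4. The alpha chain was less uniform, with Trav13 at 84.81%, 87.28% and 73.90% of TRAV counts in the controls, 59.74% in early 1 and 86.74% in early 2, so that early 1 also stood lowest there. TRAV counts were fewer, from 85.5 to 240 CPM in all, against 4497 to 10313 CPM for TRBV. The part that such cells had in the results below was not tested.

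**Figure D1:**
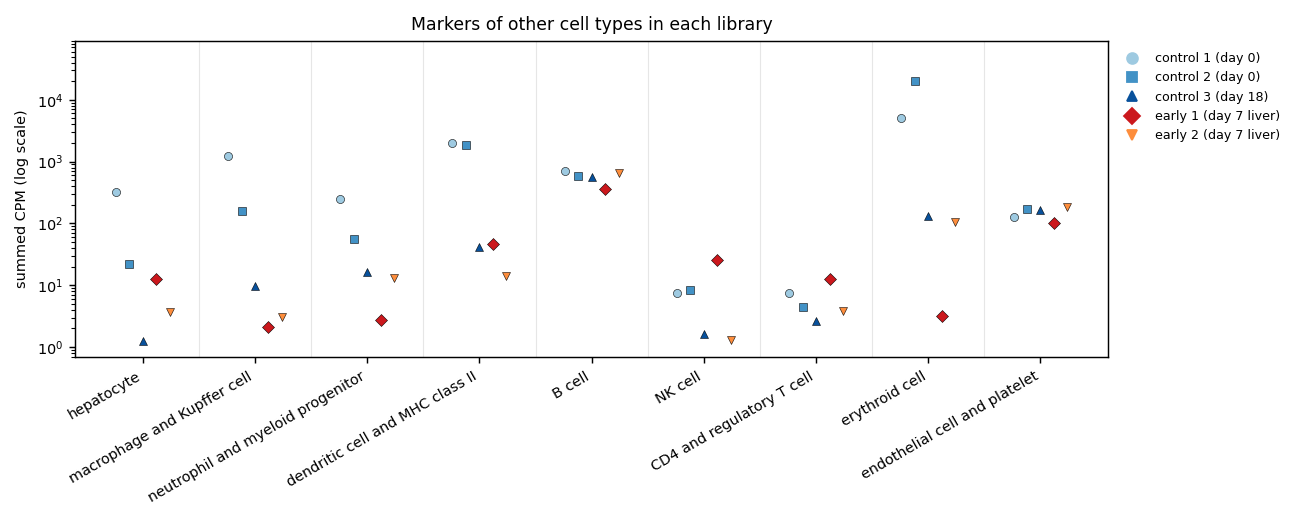
Summed TMM-scaled CPM (log scale) of markers of 9 other cell types, with 1 point per library. The day 0 controls (circle and square) stand highest for macrophage, MHC class II and erythroid markers, while the day 18 control lies nearer the early libraries (diamond and down triangle).

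The early libraries were unlike each other. With both taken as 1 group, none of 14616 tested genes passed an adjusted p of 0.05 against the controls in edgeR's quasi-likelihood test (0% called, smallest adjusted p = 0.454), 1496 genes had an unadjusted p under 0.05, of which 1067 were higher and 429 lower, and DESeq2 called 351 genes. Each early library was therefore also set against the 3 controls on its own, in a fit that assumes that a lone library varies like the libraries of the other groups. Early 1 had 1383 genes higher (9.46% of those tested) and 510 lower (3.49%), whereas early 2 had 1 gene called in either direction (0.00684%), with 411 genes at an unadjusted p under 0.05 and 55 called by DESeq2. Both comparisons used the same controls. The genes that rose in early 1 had a median log2 fold change of 1.59 there and of 0.07 in early 2 (quartiles -0.18 and 0.31), and those that fell had medians of -1.33 and -0.15. The early libraries were not tested against each other.

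The count in early 1 depended on the fit. It was 1404 within the XC name series, which holds both early libraries and controls 2 and 3, 296 with no term for the name series (TG or XC), 1056 without control 2, and 1026 against the day 18 control alone. The transcripts of genes that fell were longer (median 3450 bases, against 2584 for all tested genes and 2216 for those that rose), and GC content was alike (51.1%, 49.9% and 51%). The part of transcript length in the falls was not tested.

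**Figure D2:**
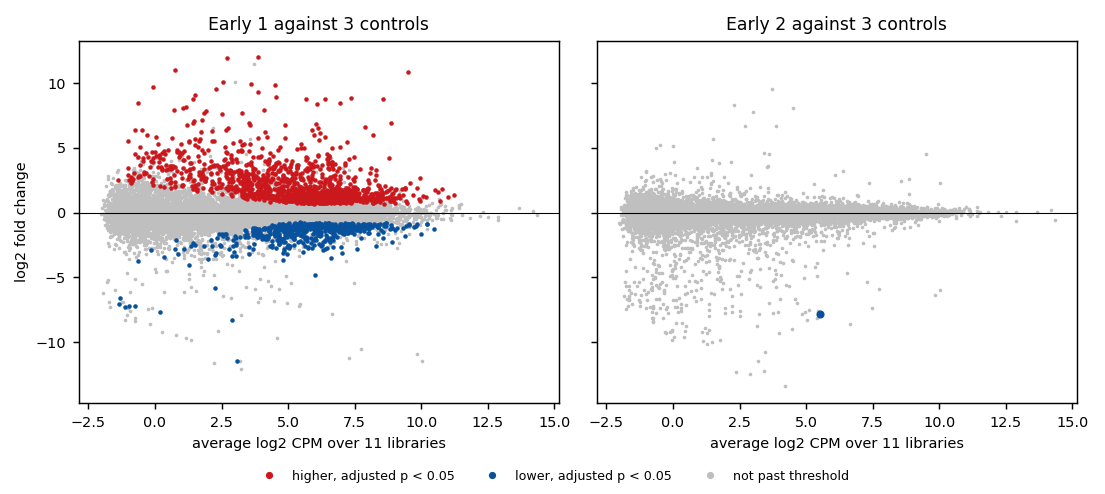
Log2 fold change of each of 14616 genes against the 3 controls, plotted over its average log2 CPM, for early 1 (left) and early 2 (right). Red and blue points passed an adjusted p of 0.05 as higher or lower, and 1893 genes did so on the left and 1 on the right.

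Genes induced by TCR signaling were among the 9.46% of tested genes that rose in early 1. Of 25 tested genes of the immediate TCR response, 9 rose, 0 fell and 16 did not pass, with a median log2 fold change of 1.16 against -0.07 for all tested genes. In early 2 none passed, and the median was 0.05 against -0.03 for all genes. The 9 genes were Nr4a1, Nr4a2, Nr4a3, Egr2, Egr3, Irf4, Myc, Spry1 and Cd5.

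In this list, the NR4A family members are nuclear receptors that are transcribed within the first hours of TCR ligation and restrain effector function. Nr4a1 was at 127, 99.8 and 37.1 CPM in the controls, 884 CPM in early 1 and 59.1 CPM in early 2. Nr4a2 was at 12.5, 9.06 and 6.98 CPM in the controls, 317 CPM in early 1 and 21.9 CPM in early 2. Nr4a3 was at 6.54, 10.5 and 7.71 CPM in the controls, 183 CPM in early 1 and 11.2 CPM in early 2. All 3 were far above every control in early 1, and in early 2 only Nr4a2 and, narrowly, Nr4a3 lay above the highest control. Log2 fold changes in early 1 were 3.45 ± 0.81 (SE) for Nr4a1, 5.10 ± 0.39 for Nr4a2 and 4.40 ± 0.57 for Nr4a3, with edgeR adjusted p = 0.0484, 0.000213 and 0.00468, and in early 2 the change of Nr4a2 was 1.25 ± 0.40 (adjusted p = 0.999). The call of Nr4a1 was lost without control 1 and without control 2.

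Because the 3 NR4A genes rose together in early 1, the RefSeq promoter windows of these genes (GRCm38.p6, 250 bases before to 50 after the start) are printed 5′ to 3′. They lie at chr15:101266596-101266895 (plus strand), chr2:57123954-57124253 (minus strand) and chr4:48045055-48045354 (plus strand). Capitals mark TGACG on either strand, the half-site of the cAMP response element bound by CREB and ATF factors, a motif chosen after the sequences were seen. Each window holds 4 copies, and 1.03% of 32851 mouse promoter windows hold 3 or more, while 20.8% hold at least 1. The half-site was found in windows of 4 of the 9 genes that rose (also Egr2), and neither the full element TGACGTCA (in 1.79% of all windows) nor the AP-1 motif TGANTCA (7.81%) was found in any of the 9. Among the other motifs counted, NFAT (GGAAAA, in 23.4% of all windows) and the MYC E-box (CACGTG, 7.15%) were found only in Egr2. NF-kB (GGGANTTCC, 1.68%) and EGR (GCGTGGG, 5.04%) motifs were found in none of the 9. A match of letters is a description of the window and not of binding.
Nr4a1: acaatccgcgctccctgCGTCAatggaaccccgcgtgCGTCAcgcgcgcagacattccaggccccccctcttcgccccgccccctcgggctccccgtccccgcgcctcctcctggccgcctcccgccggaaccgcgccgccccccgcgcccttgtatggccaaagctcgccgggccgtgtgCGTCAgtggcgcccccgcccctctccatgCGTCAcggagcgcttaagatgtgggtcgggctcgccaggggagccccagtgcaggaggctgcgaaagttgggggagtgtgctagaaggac
Nr4a2: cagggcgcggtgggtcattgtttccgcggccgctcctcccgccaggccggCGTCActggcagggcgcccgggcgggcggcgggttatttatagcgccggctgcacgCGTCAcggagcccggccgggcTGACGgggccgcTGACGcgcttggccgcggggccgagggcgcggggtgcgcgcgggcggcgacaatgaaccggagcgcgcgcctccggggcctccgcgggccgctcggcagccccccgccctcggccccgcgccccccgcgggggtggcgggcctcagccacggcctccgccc
Nr4a3: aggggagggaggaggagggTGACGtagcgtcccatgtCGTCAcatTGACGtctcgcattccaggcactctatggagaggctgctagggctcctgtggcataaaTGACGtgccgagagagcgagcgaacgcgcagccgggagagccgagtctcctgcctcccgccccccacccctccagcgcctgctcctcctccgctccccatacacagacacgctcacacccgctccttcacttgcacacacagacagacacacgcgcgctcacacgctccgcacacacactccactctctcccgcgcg

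EGR factors, which act downstream of ERK signaling, and IRF4, whose level follows TCR signal strength, rose as well. Egr2 was at 6.25, 4.37 and 10.6 CPM in the controls, 86.4 CPM in early 1 and 6.69 CPM in early 2. Irf4 was at 2.48, 1.42 and 4.65 CPM in the controls, 168 CPM in early 1 and 6.27 CPM in early 2. Early 1 was above the other 4 of the 5 libraries for both genes, and early 2 lay among the controls for Egr2 and just above them for Irf4. In early 1 Egr2 changed by a log2 fold of 3.64 ± 0.60 (adjusted p = 0.0116), Egr3 by 2.91 ± 0.62 (adjusted p = 0.0266) and Irf4 by 5.84 ± 0.54 (adjusted p = 0.00136), and Egr1 did not pass (1.52 ± 0.50, adjusted p = 0.0918). Spry1, a feedback inhibitor of RAS and ERK signaling, was at 1.13, 0.817 and 1.34 CPM in the controls, 120 CPM in early 1 and 2.35 CPM in early 2 (log2 fold change in early 1 6.81, adjusted p = 5.58e-06). Cd5, a negative regulator whose level is tuned by TCR signals, was at 264 CPM in early 1 against 109 to 150 CPM in the other 4 libraries (log2 fold change 1.16, adjusted p = 0.0332).

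Other genes of the list did not follow. Cd69, an early activation receptor that retains cells in tissue, was at 546, 330 and 267 CPM in the controls and at 326 and 347 CPM in the early libraries, and Batf, an AP-1 partner of IRF4, was at 91.9, 40 and 33.1 CPM in the controls and at 36.8 and 30.6 CPM in the early libraries. Both early libraries lay within or below the range of the controls for these genes. The AP-1 genes Fos, Jun and Junb were at 268, 375 and 857 CPM in early 1, below every control, and at 1064, 1566 and 2236 CPM in early 2 (adjusted p = 0.361, 0.396 and 0.156 in early 1). The controls were at 1489, 657 and 1079 CPM for Fos, 779, 817 and 879 CPM for Jun, and 1662, 1962 and 1262 CPM for Junb. Early 2 thus lay within the controls for Fos and above all of them for Jun and Junb, with log2 fold changes of 0.08 and 0.15.

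Myc encodes a transcription factor that drives growth of activated T cells. It was at 114, 114 and 118 CPM in the controls, 671 CPM in early 1 and 163 CPM in early 2. Both early libraries lay above all controls, and early 1 also exceeded the 3 mid (days 13 to 14) and 2 late (days 16 to 18) liver libraries of the series, which lay between 157 and 517 CPM. The log2 fold change was 2.53 ± 0.34 in early 1 (adjusted p = 0.00216) and 0.49 ± 0.36 in early 2 (adjusted p = 0.999).

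Genes for biosynthesis rose together in early 1, where 9.46% of all tested genes rose. Of 20 ribosome biogenesis genes, which make and assemble ribosomal RNA, 19 rose and 1 (Polr1a, adjusted p = 0.0721) did not pass, with a median log2 fold change of 1.53. Of 13 genes for amino acid transport and one-carbon metabolism, which supply protein and nucleotide synthesis, 11 rose with a median of 1.74, and of 16 glycolysis genes 10 rose with a median of 1.20. No gene of these lists fell in early 1 or passed in early 2, where the medians were 0.23, 0.34 and 0.20.

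Ncl, encoding the nucleolar protein nucleolin, was at 387, 477 and 470 CPM in the controls, 1816 CPM in early 1 and 509 CPM in early 2. Slc7a5, the large neutral amino acid transporter, was at 38, 66.3 and 70.4 CPM in the controls, 366 CPM in early 1 and 83.6 CPM in early 2. Shmt1, a serine hydroxymethyltransferase of the folate cycle, was at 11.5, 6.82 and 13.3 CPM in the controls, 179 CPM in early 1 and 16.4 CPM in early 2. For each of these genes early 2 lay just above the highest control and early 1 far above it. In early 1 the log2 fold changes were 1.92 for Ncl (adjusted p = 0.000385), 2.47 for Slc7a5 (adjusted p = 0.000111) and 4.37 for Shmt1 (adjusted p = 0.00133). Hk2, the inducible hexokinase, rose from 2.53, 1.31 and 1.43 CPM to 40.1 CPM in early 1 (log2 fold change 4.62, adjusted p = 9.48e-05) and was at 2.69 CPM in early 2, whereas the glucose transporter Slc2a1 did not pass (0.60, adjusted p = 0.134).

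In these lists both early libraries were also often above the controls. Over all tested genes, both early libraries exceeded the highest control for 1398 genes (9.56%) and lay under the lowest control for 1581 (10.8%), with no test attached. The first order was seen in 13 of 20 ribosome biogenesis genes, 9 of 13 amino acid and one-carbon genes and 5 of 16 glycolysis genes, and the second in none of them. On the deposited TPM, which carry no correction for composition and shift the median gene up by 0.20 on the log2 scale between the group means (-0.02 on TMM-scaled CPM), the counts over all genes were 3200 (21.9%) and 503 (3.44%), and the lists had 15, 12 and 9 genes above.

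Cell division genes rose in early 1, where 9.46% of all tested genes rose. Of 25 replication and mitosis genes, 24 rose in early 1, with a median log2 fold change of 2.54, and Cdt1, a replication licensing factor, did not pass (0.54, adjusted p = 0.235). None passed in early 2, where the median was -0.41, and both early libraries exceeded all controls for 2 of the 25, close to the 9.56% of all genes. Mki67, which marks cycling cells, was at 13, 3.82 and 1.02 CPM in the controls, 80.1 CPM in early 1 and 1.25 CPM in early 2. Mcm5, a subunit of the replicative helicase, was at 58, 59.5 and 62.6 CPM in the controls, 315 CPM in early 1 and 74.3 CPM in early 2. Rrm2, the regulated subunit of ribonucleotide reductase, was at 9.2, 7.31 and 4.11 CPM in the controls, 102 CPM in early 1 and 3.18 CPM in early 2. Early 1 was the highest of the 5 libraries for all 3 genes, and early 2 was within the range of the controls for Mki67, above it for Mcm5 and below it for Rrm2. The rises in early 1 were 4.38 ± 0.95 for Mki67 (adjusted p = 0.0413), 2.54 for Mcm5 (adjusted p = 0.00721) and 3.79 for Rrm2 (adjusted p = 0.0188) on the log2 scale. Among the controls, the day 0 libraries had the higher levels of several mitosis genes, as with Mki67, beside their erythroid and myeloid markers.

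**Figure D3:**
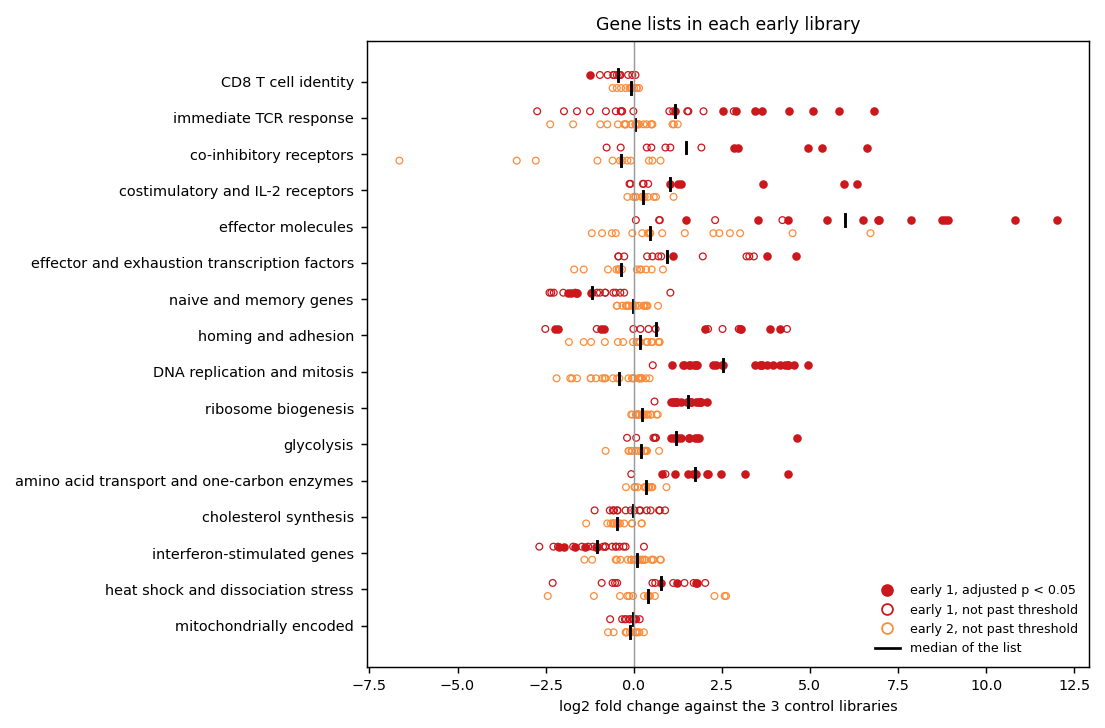
Log2 fold change against the 3 controls for the tested genes of 16 lists in early 1 (red, upper row of each list) and early 2 (orange, lower row). Filled points passed an adjusted p of 0.05 and black bars mark list medians, which reach 6.00 in early 1 and 0.46 in early 2 for effector molecules.

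Effector molecules had the highest median change of the 16 T cell gene lists in early 1. Of all tested genes, 9.46% rose there. Of 18 tested, 13 rose, with a median log2 fold change of 6.00, and none fell. In early 2 none passed (median 0.46), although both early libraries were above all controls for 7 of the 18 genes, against 9.56% of all genes. Il2, Csf2 and Gzmc, which are among the 13 and the 7, had fewer than 10 counts in every control. They passed the count filter only through other libraries, which favoured this order. The median of 6.00 includes their folds against those few counts.

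Chemokines were among these genes. Xcl1, the XCR1 ligand that draws in cross-presenting dendritic cells, was at 1.10, 0.399 and 2.39 CPM in the controls, 1727 CPM in early 1 and 21.7 CPM in early 2. Ccl3 was at 3.18, 1.06 and 0.0956 CPM in the controls, 336 CPM in early 1 and 3.51 CPM in early 2, and Ccl4, a related chemokine, was at 7.87, 2.41 and 0.351 CPM, then 618 and 7.70 CPM. Xcl1 had a wide gap between the groups in both early libraries, whereas early 2 was barely above the highest control for Ccl3 and within the controls for Ccl4. The log2 fold changes in early 1 were 10.82 ± 1.11 for Xcl1 (adjusted p = 0.00404), 8.84 ± 0.66 for Ccl3 (adjusted p = 0.000825) and 8.76 ± 0.78 for Ccl4 (adjusted p = 0.00187). In early 2, Xcl1 changed by 4.51 ± 0.97, with an adjusted p of 0.999.

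The cytokine interferon gamma and the granule proteins rose as well. Ifng was at 3.01, 1.18 and 0.637 CPM in the controls, 102 CPM in early 1 and 1.53 CPM in early 2. Gzmb, granzyme B, was at 3.10, 2.01 and 1.75 CPM in the controls, 221 CPM in early 1 and 4.95 CPM in early 2. Prf1, which encodes the pore protein perforin, was at 48.2, 51.3 and 71.6 CPM in the controls, 148 CPM in early 1 and 72.9 CPM in early 2. Early 2 was among the controls for Ifng and above the highest of them for Gzmb and, by a small margin, Prf1. In early 1 the log2 fold changes were 6.52 ± 0.37 for Ifng (adjusted p = 5.88e-05), 6.93 ± 0.61 for Gzmb (adjusted p = 0.00128) and 1.47 ± 0.33 for Prf1 (adjusted p = 0.0212). Gzma did not pass (4.22 ± 1.15, adjusted p = 0.0801), with 9 and 7.50 CPM in the day 0 controls, 0.478 CPM in the day 18 control, 71.8 CPM in early 1 and 1.68 CPM in early 2.

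Il2, the T cell growth factor, was represented by 4 estimated counts over the 3 controls together, and reached 31.0 CPM in early 1 and 0.795 CPM in early 2. Csf2, encoding GM-CSF, had 7 counts over the controls and was at 5.42 and 0.153 CPM in the early libraries, and Gzmk had 13 counts and was at 32.8 and 0.0917 CPM. All 3 passed in early 1 (adjusted p = 0.00181, 0.00159 and 0.0156), and no fold is given against so few counts. The cytokine Tnf did not pass, at 8.41, 2.39 and 13.4 CPM in the controls and 33.9 and 12.0 CPM in the early libraries (adjusted p = 0.131 in early 1).

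Of 12 co-inhibitory receptor genes, 5 rose in early 1 (Pdcd1, Lag3, Tigit, Cd160 and Cd200), none fell, and none passed in early 2. The share over all tested genes was 9.46% higher in early 1. Pdcd1, encoding PD-1, was at 1.10, 1.37 and 2.39 CPM in the controls, 150 CPM in early 1 and 2.57 CPM in early 2. Lag3, whose product binds MHC class II, was at 0.868, 0.532 and 0.191 CPM in the controls, 24.3 CPM in early 1 and 0.458 CPM in early 2. Early 1 was the highest of the 5 libraries for both, and early 2 lay at the upper edge of the controls for Pdcd1 and inside them for Lag3. The log2 fold changes in early 1 were 6.62 ± 0.50 for Pdcd1 (adjusted p = 0.000445) and 5.33 ± 0.55 for Lag3 (adjusted p = 0.00145). The mid and late liver libraries held 227 to 937 CPM of Pdcd1 and 52.2 to 157 CPM of Lag3, so early 1 lay under all 5 of them for both genes.

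Ctla4 and Havcr2, the latter encoding TIM-3, did not pass. Ctla4 was at 28.0, 13.4 and 1.78 CPM in the controls and at 51.6 and 6.66 CPM in the early libraries (adjusted p = 0.445 in early 1). Havcr2 was at 6.47, 12.4 and 0.319 CPM in the controls and at 3.77 and 0.0611 CPM in the early libraries (adjusted p = 0.823 in early 1). For both genes the day 0 controls, which carry the macrophage and dendritic cell markers, lay well above the day 18 control, and the log2 fold change of Havcr2 in early 1 went from -0.77 to 3.55 (adjusted p = 0.196) against the day 18 control alone.

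Of 11 costimulatory and IL-2 receptor genes, 6 rose in early 1 (Tnfrsf4, Tnfrsf9, Tnfrsf1b, Icos, Il2ra and Il2rb) and none passed in early 2. The share over all tested genes was 9.46% higher in early 1. Il2ra, the high-affinity IL-2 receptor chain, was at 1.03, 0.722 and 1.85 CPM in the controls, 109 CPM in early 1 and 2.93 CPM in early 2. Tnfrsf9, the activation-induced receptor 4-1BB, was at 5.68, 3.25 and 14.4 CPM in the controls, 474 CPM in early 1 and 11.6 CPM in early 2. Early 2 was above all controls for Il2ra and not for Tnfrsf9. The changes in early 1 were 6.34 ± 0.37 (adjusted p = 6.44e-05) and 5.97 ± 0.76 (adjusted p = 0.0066) on the log2 scale.

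Transcription factors of effector and exhausted cells moved less evenly in early 1, where 9.46% of all tested genes rose. Of 14 tested, 3 rose in early 1 (Tbx21, Tox2 and Nfatc1), 11 did not pass, and none passed in early 2. Tbx21, encoding T-bet, was at 6.6, 8.09 and 14.4 CPM in the controls, 135 CPM in early 1 and 13.9 CPM in early 2 (log2 fold change in early 1 3.79, adjusted p = 0.00114). Tox, the factor tied to exhaustion, was at 31.8, 53.1 and 77.8 CPM in the controls, 90.2 CPM in early 1 and 79.9 CPM in early 2. Both early libraries were above the highest control for Tox, by little beside the spread of the controls, and the change in early 1 was 0.38 ± 0.32 (adjusted p = 0.474). Eomes, a T-bet relative, was at 6.04, 6.29 and 24.6 CPM in the controls and at 118 and 21.8 CPM in the early libraries (adjusted p = 0.0628 in early 1).

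**Figure D4:**
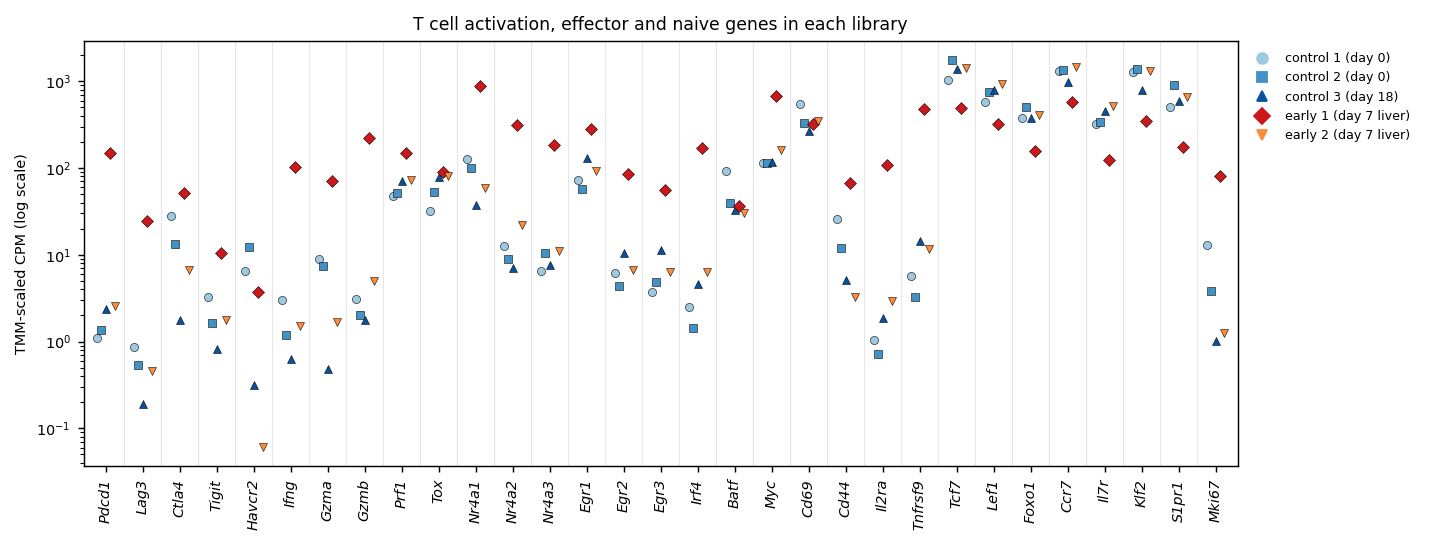
TMM-scaled CPM (log scale) of 31 T cell genes, with 1 point per library. Early 1 (diamonds) lies away from the 3 controls for most genes, as for Pdcd1 (150 CPM) and Tcf7 (496 CPM), while early 2 (down triangles) lies near the controls, at 2.57 and 1405 CPM.

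Genes of naive and memory cells were lower in early 1, where 3.49% of all tested genes fell. Of 20 tested, 5 fell (Tcf7, Lef1, Foxo1, Klf2 and Actn1), none rose and 15 did not pass, with a median log2 fold change of -1.19. In early 2 none passed and the median was -0.03. Tcf7, encoding TCF1, was at 1047, 1755 and 1395 CPM in the controls, 496 CPM in early 1 and 1405 CPM in early 2. Foxo1, which maintains the naive program, was at 378, 508 and 377 CPM in the controls, 156 CPM in early 1 and 410 CPM in early 2. Klf2, an activator of S1pr1, was at 1264, 1388 and 787 CPM in the controls, 348 CPM in early 1 and 1320 CPM in early 2. Early 1 was under every control for each of these genes, and early 2 was within their range. In early 1 the log2 changes were -1.65 ± 0.26 for Tcf7 (adjusted p = 0.00359), -1.20 ± 0.33 for Lef1 (adjusted p = 0.0422), -1.60 ± 0.28 for Foxo1 (adjusted p = 0.00589) and -1.79 ± 0.45 for Klf2 (adjusted p = 0.0354). The lymphoid homing and survival genes had values in the same direction without passing, with log2 changes of -1.04 for Ccr7 and -2.39 for S1pr1, levels of Il7r of 322, 335 and 451 CPM in the controls and 125 and 524 CPM in the early libraries, and adjusted p from 0.0614 to 0.201. In a bulk library, fewer cells of a kind and less RNA per cell cannot be told apart.

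Homing and adhesion genes changed in both directions in early 1, with 5 of 19 higher and 4 lower. Of all tested genes, 9.46% were higher there and 3.49% lower. Among the genes that rose were Cxcr3, Ccr2 and Cx3cr1, receptors for inflammatory chemokines, and Ly6c2. Cxcr3 was at 23.5, 8.09 and 4.11 CPM in the controls, 98 CPM in early 1 and 9.5 CPM in early 2 (adjusted p = 0.00504 in early 1), and Cx3cr1, found on effector cells in blood, was at 0.779, 0.892 and 0.255 CPM, then 14.5 and 0.458 CPM (adjusted p = 0.0043). The genes that fell were Cxcr4, Itgae, Itgb7 and Selplg. Itgae, the CD103 integrin chain, was at 95.3, 163 and 217 CPM in the controls, 41.7 CPM in early 1 and 306 CPM in early 2, so that the early libraries lay on opposite sides of the controls (adjusted p = 0.0224 in early 1). Cd44, an adhesion receptor raised on antigen-experienced cells, did not pass, at 26.2, 12 and 5.13 CPM in the controls and 66.8 and 3.24 CPM in the early libraries (adjusted p = 0.0578 in early 1).

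Some interferon-stimulated genes, which restrict viral replication, fell in early 1, where 3.49% of all tested genes fell. Of 24 tested, 6 fell (Ifit1, Ifit2, Oasl2, Irf7, Rtp4 and Ddx58), none rose, and the median log2 fold change was -1.06. In early 2 none passed and the median was 0.08. Ifit1 was at 30.8, 41.4 and 40.6 CPM in the controls, 11.6 CPM in early 1 and 47.9 CPM in early 2 (log2 fold change in early 1 -2.12, adjusted p = 0.0207). Irf7, which amplifies type I interferon, was at 165, 112 and 103 CPM in the controls, 56.2 CPM in early 1 and 134 CPM in early 2 (-1.07, adjusted p = 0.0332). Early 1 was the lowest of the 5 libraries for both.

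The other genes with the largest rises in early 1, taken among those with an average log2 CPM of at least 4, included Rgs16, Nrn1, Zbtb32 and Bcat1. Rgs16, a GTPase activator that shortens chemokine receptor signals, was at 0.176, 0.228 and 0.414 CPM in the controls, 131 CPM in early 1 and 2.75 CPM in early 2. Zbtb32, a transcriptional repressor induced in activated lymphocytes, was at 0.515, 0.266 and 0.542 CPM in the controls, 130 CPM in early 1 and 0.947 CPM in early 2. Bcat1, the cytosolic branched-chain aminotransferase, was at 0.515, 0 and 1.31 CPM in the controls, 162 CPM in early 1 and 3.45 CPM in early 2. For these 3 genes both early libraries were above all controls. The log2 fold changes in early 1 were 8.77 ± 0.34 for Rgs16 (adjusted p = 2.49e-06), 8.47 ± 0.29 for Zbtb32 (adjusted p = 1.5e-06) and 8.42 ± 1.18 for Bcat1 (adjusted p = 0.0126), and Rgs16 in early 2 had the smallest adjusted p of any gene that was higher there (3.19 ± 0.38, adjusted p = 0.0707).

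The 10 largest falls in early 1 were of Cebpb, Hs6st1, Smad4, Gna12, Otud1, Axin1, Rab21, Crls1, Lemd2 and Snx20. Cebpb, a basic leucine zipper factor, was at 64.1, 108 and 86.3 CPM in the controls, 3.44 CPM in early 1 and 107 CPM in early 2. Smad4, the shared mediator of TGF-beta signals, was at 106, 179 and 200 CPM in the controls, 15.6 CPM in early 1 and 46.8 CPM in early 2. Axin1, a scaffold of the beta-catenin destruction complex, was at 138, 225 and 189 CPM in the controls, 23.7 CPM in early 1 and 118 CPM in early 2. Early 2 was at the level of the controls for Cebpb and below all of them for Smad4 and Axin1. In early 1 the log2 changes were -4.86 ± 0.32 for Cebpb (adjusted p = 6.44e-05), -3.52 ± 0.40 for Smad4 (adjusted p = 0.000893) and -3.15 ± 0.25 for Axin1 (adjusted p = 0.000142), and in early 2 the change of Smad4 was -1.93 ± 0.36 (adjusted p = 0.677). The mid and late liver libraries held 33.9 to 67.9 CPM of Cebpb and 52.5 to 95.2 CPM of Smad4, all above early 1.

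The genes with the widest upward gap between both early libraries and all controls were Alb, Xcl1, Rgs16, Bcat1, Syne3, Hspa1a, Kcnk5, Hspa1b, Arsb and Nt5e. Syne3 and Arsb were at comparable levels in the 2 early libraries, and Nt5e was higher in early 1 (log2 fold change 1.51) than in early 2 (0.83). Syne3, a nuclear envelope protein, was at 3.15, 6.49 and 6.28 CPM in the controls and at 20.6 and 15.6 CPM in the early libraries. Arsb, a lysosomal sulfatase, was at 10.3, 18.8 and 23.3 CPM in the controls and at 46.8 and 42.8 CPM in the early libraries. Nt5e, the ectonucleotidase CD73, was at 11.4, 15.8 and 20.4 CPM in the controls and at 60.1 and 37.3 CPM in the early libraries. The heat shock gene Hspa1a was at 287, 60.6 and 422 CPM in the controls, 950 CPM in early 1 and 2146 CPM in early 2, and Hspa1b was at 784, 230 and 1046 CPM, then 1961 and 4409 CPM, so early 2 was the higher of the early libraries for both. The log2 fold changes in early 1 and early 2 were 1.66 ± 0.26 (adjusted p = 0.00375) and 1.26 ± 0.27 (adjusted p = 0.999) for Syne3, and 1.44 ± 1.91 and 2.62 ± 1.90 for Hspa1a (adjusted p = 0.688 and 0.999). Of the 15 tested heat shock and dissociation stress genes, 4 rose in early 1 (9.46% of all genes rose there), none passed in early 2, and 5 were above all controls in both early libraries, against 9.56% of all genes. On the deposited TPM, 9 of the 15 were above, against 21.9% of all genes. Of 12 hepatocyte markers 8 were tested, and 6 were above all controls in both early libraries, Alb among them. The list sum was nevertheless highest in control 1 (319 CPM). Alb had 1, 0 and 1 counts in the controls and passed the count filter only through liver libraries. Its order was therefore favoured by the filter. The part of these markers in the other genes was not tested. With both early libraries as 1 group, the smallest unadjusted p of genes that were higher belonged to Lif, Syne3, Ccr10, Rem2 and Cnih3 and of those lower to Inafm2, Mex3c, Smad4, Slk and H3f3c, each with an adjusted p of 0.454. Lif, a cytokine of the IL-6 family, was at 0.103, 0.152 and 0.287 CPM in the controls and 8.39 and 1.47 CPM in the early libraries. Lif, Ccr10 and Rem2 had fewer than 10 counts in every control, so they passed the count filter only through other libraries. That filter favoured their rise. In the early libraries Ccr10 was at only 0.774 and 0.336 CPM and Rem2 at 1.5 and 0.489 CPM.

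The widest downward gaps were of Csf1r, Slc40a1, C1qc, Fcna, H2-Eb1, H2-Aa, H2-Ab1, Ppp2cb, Vcam1 and Gna12. All but Ppp2cb and Gna12 are genes of macrophages or antigen-presenting cells. Csf1r, the macrophage growth factor receptor, was at 182, 30.6 and 3.57 CPM in the controls and at 0.460 and 0.458 CPM in the early libraries. H2-Ab1, an MHC class II chain, was at 572, 442 and 4.72 CPM in the controls and at 0.992 and 0.550 CPM in the early libraries. The day 18 control stood much closer to the early libraries than the day 0 controls did, and neither gene passed in early 1 (adjusted p = 0.121 and 0.203) or early 2 (adjusted p = 0.999 for both). All 7 tested macrophage markers, 4 of 8 dendritic cell and MHC class II markers and 4 of 5 erythroid markers lay under the lowest control in both early libraries, against 10.8% of all genes. Ppp2cb, a catalytic subunit of the phosphatase PP2A, was at 39.4, 47.9 and 47.5 CPM in the controls and at 6.46 and 8.89 CPM in the early libraries (adjusted p = 0.111 and 0.999). Gna12, a G protein alpha subunit, was at 23.8, 42.4 and 38.3 CPM in the controls and at 3.94 and 7.52 CPM in the early libraries. Its log2 fold changes were -3.17 and -2.24, and the change in early 2 did not pass. For both genes the day 18 control lay within the range of the day 0 controls.

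**Figure D5:**
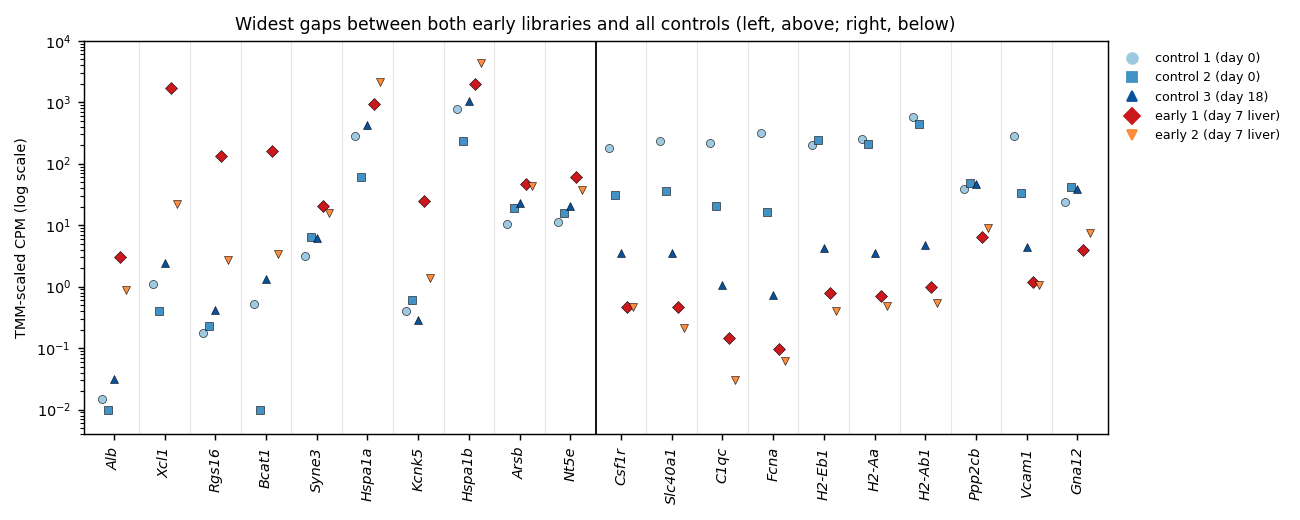
TMM-scaled CPM (log scale) of the 10 genes with the widest upward gap (left of the line) and the 10 with the widest downward gap (right) between both early libraries and all 3 controls, 1 point per library, with values under 0.01 drawn at 0.01. Most downward genes are high only in the day 0 controls, whereas Ppp2cb (39.4 to 47.9 CPM) and Gna12 (23.8 to 42.4 CPM) are high in all 3.

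The 1 gene called in early 2, Gm13835, is a processed pseudogene at chr6:31141979-31142663 (GRCm38). It was at 62.8, 11.9 and 16.1 CPM in the controls, 51.9 CPM in early 1 and 0.0611 CPM in early 2 (log2 fold change in early 2 -7.79 ± 0.77, adjusted p = 0.0463). Reads of a processed pseudogene can be shared with its parent gene, so this value is uncertain, and the call was lost without control 1 (adjusted p = 0.353), without control 2 (adjusted p = 0.12) and within the XC name series (adjusted p = 0.59).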

How the data were processed

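TCRTg101 were sorted by FACS, RNA was extracted in Trizol and low-input libraries were sequenced on an Illumina HiSeq instrument in 2 batches. The authors quantified reads with kallisto (version not given in the sources used here), and the deposited files hold estimated counts and TPM per transcript (mm10/GRCm38). Estimated counts were summed per gene (98.25% of 118783 transcripts were assigned), summed over the runs of a library and rounded. Genes that reached 10 counts in 6 or more of 11 libraries (the controls, early, mid and late liver and undivided cells) were tested with edgeR 4.0.16 in R 4.3.3 (TMM, robust quasi-likelihood test, group plus the TG or XC series of the library names, Benjamini-Hochberg adjustment), which left 5 residual degrees of freedom, or 4 with each early library apart. The filter let in genes with fewer than 10 counts in every control, among them Nrn1, and so favoured their rise. The name series was taken as the batch, which no label states. DESeq2 1.42.0, used by the study, was an alternative. TPM served only as an alternative scale. The fit was also run on simulated counts drawn with its own estimated spread. Both early libraries changed alike there and no series effect was added, so that run cannot vouch for the single-library calls. Nothing in the labels says that libraries came from separate mice, so p-values measure the spread between these libraries. A permutation of 2 against 3 libraries cannot give a two-sided p below 0.2, so none was run. Named genes were 31 T cell genes, the 10 largest rises and falls called in each early library (average log2 CPM of at least 4), the 10 widest gaps each way, the 5 smallest unadjusted p each way, and examples from the lists. The members and lists were chosen with earlier results of these data known. Some genes of the rule and lists are not reported here by name.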

Additional observations from a re-analysis of the deposited data

Results flagged for a closer look

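TCRTg101 from the spleen of leukemia-bearing mice at day 7 were outside the comparison, and 5 of the 10 genes with the widest upward gap between liver and controls were above all 3 controls in both of these libraries as well. The lower of the day 7 spleen values, in CPM scaled over 14 libraries, was 0.836 for Rgs16, 1.53 for Bcat1, 10.3 for Syne3, 0.909 for Kcnk5 and 23.1 for Nt5e. The higher values were 4.42, 10.5, 12.4, 2.94 and 33.3 CPM. Alb, Xcl1, Hspa1a, Hspa1b and Arsb did not show this order, and for Xcl1 the day 7 spleen values were 10.8 and 1.45 CPM. The 10 genes had been picked for standing above these same 3 controls, and the share of all tested genes with this order in the spleen was not computed. No test was made.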

How the results depend on the processing

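For both early libraries together, the 0 genes called became 351 with DESeq2, 1483 with no count filter and 19 against the day 0 controls only, and ranged from 0 to 1884 when 1 library was left out (20 without control 3, 1 without early 1, 1884 without early 2). For early 1, the 1893 genes called became 296 with no term for the name series, 3099 with no count filter and 1026 against the day 18 control only, an alternative chosen after seeing the data, and ranged from 1056 (without control 2) to 2203. For early 2, the 1 gene called became 55 with DESeq2, 498 with no count filter, 74 against the day 0 controls, 3 with 5 libraries, and 0 with no series term, within the XC series, with counts scaled from TPM and against the day 18 control, and ranged from 0 (without control 1 or control 2) to 70 (without control 3). Genes with both early libraries above or below all controls numbered 1398 and 1581, and became 2134 and 2454 with no filter, 2372 and 2685 against the day 0 controls, 3609 and 4148 against the day 18 control, and 3200 and 503 on TPM. With 1 control left out they ranged from 2032 to 2372 and from 2129 to 2685, as fewer controls have to be passed.

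Of 54 called changes of named genes, none reversed in 802 comparisons with alternatives. The alternatives reuse the same early libraries and mostly the same controls. Many of the genes were named for large changes, so a reversal was unlikely from the outset. The call was lost in 94 comparisons, covering 35 changes. Of these comparisons, 24 had no series term, 17 were against the day 18 control and 13 left out control 2. Calls in early 1 lost without control 1 were those of Nr4a1, Egr3, Lef1, Klf2 and Alb, and without control 2 those of Prf1, Nr4a1, Egr3, Lef1, Klf2, Mki67, Alb, Gzmk, Gna12, Arsb, Nt5e and Inafm2. Without control 3, Lef1, Alb and Gna12 lost the call. Changes that were not called reversed for Havcr2 (from -0.77 to 3.55 against the day 18 control and 0.95 without control 2, with a low of -1.42 without control 3), Cd69 (from -0.34 to 0.16 within the XC series, 0.15 with 5 libraries, 0.29 against the day 18 control and 0.13 without control 1, with a low of -0.73 without control 3) and Batf (from -0.01 to 0.04 within the XC series, 0.03 with 5 libraries, 0.16 against the day 18 control, 0.01 without control 1 and 0.07 without control 2, with a low of -0.11 without control 3). Beyond the number of libraries and genes tested, the cause was not tested. No paired analysis was possible because replicate numbers were given in accession order and do not pair samples.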

Other observations

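Cholesterol synthesis genes, which SREBP2 induces in growing cells, did not pass in either early library. The 16 tested genes had median log2 fold changes of -0.03 in early 1 and -0.48 in early 2, and 5 of them lay under all controls in both early libraries, against 10.8% of all genes, or 1 on the deposited TPM, against 3.44%. The 13 mitochondrially encoded genes had medians of -0.02 and -0.11, and none passed.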
